A study of Mus musculus with 67 samples.

Results

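Regulatory T cells (Tregs) were compared with activated conventional CD4+ T cells (activated Tconv) that had been sorted from the same kind of tissue, the mouse brain without the hypothalamus, here called the rest brain. The comparison used 27 of the 67 libraries of the series, chosen by their labels for tissue, cell type and experiment: 14 Treg libraries and 13 activated Tconv libraries. All came from Foxp3GFP reporter mice, in which green fluorescent protein marks cells that transcribe Foxp3. The mice were either male BL6 (C57Bl/6J) or female BalbC animals, so that strain and sex cannot be told apart, and they were fed either a standard diet (SD) or a high-fat high-sugar diet labelled HFD. The activated Tconv libraries numbered 4 BL6 SD, 3 BL6 HFD, 3 BalbC SD and 3 BalbC HFD. The Treg libraries numbered 4 BL6 SD, 4 BL6 HFD, 2 BalbC SD and 4 BalbC HFD. Tregs had been gated as CD4+CD25+Foxp3GFP+, and activated Tconv as CD4+ CD25- Foxp3GFP- cells with high CD44. By these gates high CD44 was required of activated Tconv only, and the part of this in the differences below was not tested. In the study's flow cytometry of brain CD4+ T cells, CD8a was among the exclusion markers, beside antigens of myeloid and B cells. Cells from several mice had been pooled for each library, so that a replicate is a pool and not an animal. Since bulk libraries were measured, fewer cells of a type and less RNA per cell cannot be told apart for any gene below.

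Tregs restrain other immune cells and depend on the transcription factor Foxp3. They carry the high-affinity interleukin-2 receptor chain CD25 (Il2ra) and the inhibitory receptor Ctla4, which takes costimulatory ligands from antigen-presenting cells. They take up interleukin-2 but make little of it themselves, whereas activated Tconv secrete interleukin-2 and effector cytokines. In non-lymphoid tissues, Tregs often carry Ikzf2 (Helios), Klrg1 and the interleukin-33 receptor Il1rl1 (ST2), and conventional memory T cells often carry residency molecules such as Cxcr6 and the integrin alpha chain Itga1 (CD49a).

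The libraries held 8938477 to 28187009 estimated counts. The number of genes with more than 10 counts was 5433 to 9610 in Tregs (median 8800) and 10235 to 11512 in activated Tconv (median 10800), so that it moved with the cell type. Pan-T-cell Cd3e was present in all 27 libraries, at 1420 to 2880 CPM (estimated counts scaled to the library total and its TMM factor) in Tregs and 1300 to 2340 CPM in activated Tconv. The summed CPM of 9 microglial markers was 53.5 to 347 in Tregs and 64.8 to 852 in activated Tconv. Summed Cd8a and Cd8b1, which encode the CD8 coreceptor, was 0.0584 to 76.5 CPM in Tregs, 342 to 714 CPM in 7 activated Tconv libraries (all 6 BalbC libraries and pool 01_05 of BL6 SD) and 1.83 to 72.8 CPM in the other 6, although CD8a is an exclusion marker. The sum of 3 NK cell markers was at most 0.117 CPM in Tregs and 11.9 to 112 CPM in activated Tconv. Pecam1, an endothelial gene that some T cells also carry, was higher in Tregs, at 23.2 to 126 CPM against 14.3 to 71.9 CPM. These sums are given again beside the genes they moved with.

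The 4 genes that mark the Tregs separated the groups without overlap. Foxp3, the lineage factor behind the reporter, was 235.4 CPM in the lowest Treg library, 364.2 CPM in the median one and 717.6 CPM in the highest, against 0.03432, 6.258 and 12.36 CPM in activated Tconv. Il2ra was 130.3, 371.8 and 577.8 CPM in Tregs and 4.851, 22.36 and 33.02 CPM in activated Tconv. Both genes or their products had defined the sort, so that these values check the labels and are no finding. Ikzf2 and Ctla4 were not part of the gate. Ikzf2, a zinc finger factor of the Ikaros family, was 296.4, 445.5 and 1116 CPM in Tregs and 18.82, 61.28 and 101.5 CPM in activated Tconv (log2 fold change 3.15 ± 0.25, SE; adjusted p = 2.2e-10). Ctla4 was 574.2, 969.6 and 1749 CPM in Tregs and 76.46, 107.5 and 164.3 CPM in activated Tconv (3.02 ± 0.16; adjusted p = 8.8e-14). The mean Ctla4 level was thus 8.28-fold higher in Tregs, and its p was the smallest among the genes higher in Tregs. Of the other gate genes, Cd4 did not pass the test (-0.60 ± 0.24; adjusted p = 0.129) and neither did Cd44 (-0.47 ± 0.28; adjusted p = 0.389).

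**Figure D1:**
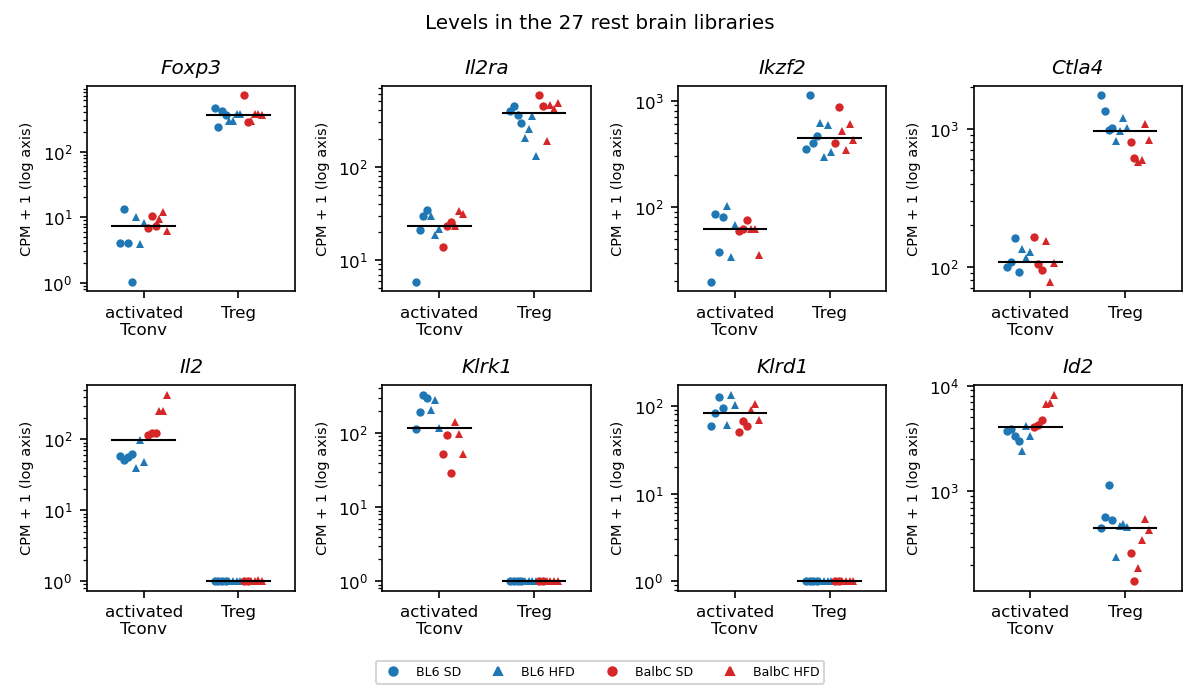
Levels of 8 genes in every rest brain library, with CPM + 1 on a log axis, Treg and activated Tconv libraries side by side, each point a library (colour for strain, shape for diet) and each bar a group median. Foxp3, Il2ra, Ikzf2 and Ctla4 are higher in all 14 Treg libraries than in any of the 13 activated Tconv libraries, whereas Il2, Klrk1, Klrd1 and Id2 show the opposite order with no overlap.

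Across the transcriptome, 9855 genes passed the filter on low counts (more than 10 counts in at least 13 libraries) and 877 of them (8.9%) passed the test between Tregs and activated Tconv at an adjusted p under 0.05. Of these, 421 (4.27% of genes tested) were higher in Tregs and 456 (4.63%) were higher in activated Tconv. The median log2 fold change over all genes tested was -0.08. With the size factors of DESeq2 in place of TMM, that median was 0.03 and the calls split into 522 higher in Tregs and 345 lower. The lowest library of one population lay above the highest library of the other for 27 genes in favour of Tregs (0.274% of genes tested) and for 44 in favour of activated Tconv (0.446%). As there were 13 activated Tconv libraries, a gene absent in Tregs entered the test only where it exceeded 10 counts in all 13 of them, so that its groups could not overlap. This held for 9 called genes, which were at or under 3 counts in every Treg library, whereas no called gene was at or under that floor in every activated Tconv library. Mctp2, just above that floor in Tregs, likewise entered the test through activated Tconv alone. Neither the non-overlap nor the p of such genes is read as support. The count was 1778 without the 3 Treg libraries that had fewer than 7000 genes and 488 with pool labels as a replicate block. Those 3 were BL6 SD pools 01_05, 11_15 and 67_71, of 4 BL6 SD Treg libraries, so that low detection fell in 1 group of strain and diet. The BL6 libraries alone gave 220 calls and the BalbC libraries alone 1932, and the part of low detection in this was not tested. Of the 421 genes higher in Tregs, 93 passed in BL6 alone, 347 in BalbC alone and 75 in both. Of the 456 genes lower in Tregs, 76 passed in BL6 alone, 353 in BalbC alone and 47 in both. The 20 genes with the smallest p in either direction, described in the following paragraphs, all passed in each strain alone. The 20 genes were chosen by their p in these same libraries, so that passing in each strain is not independent support for any of them. For the gate genes Foxp3 and Il2ra and for those that entered the test through activated Tconv alone, it is not read as support at all.

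**Figure D2:**
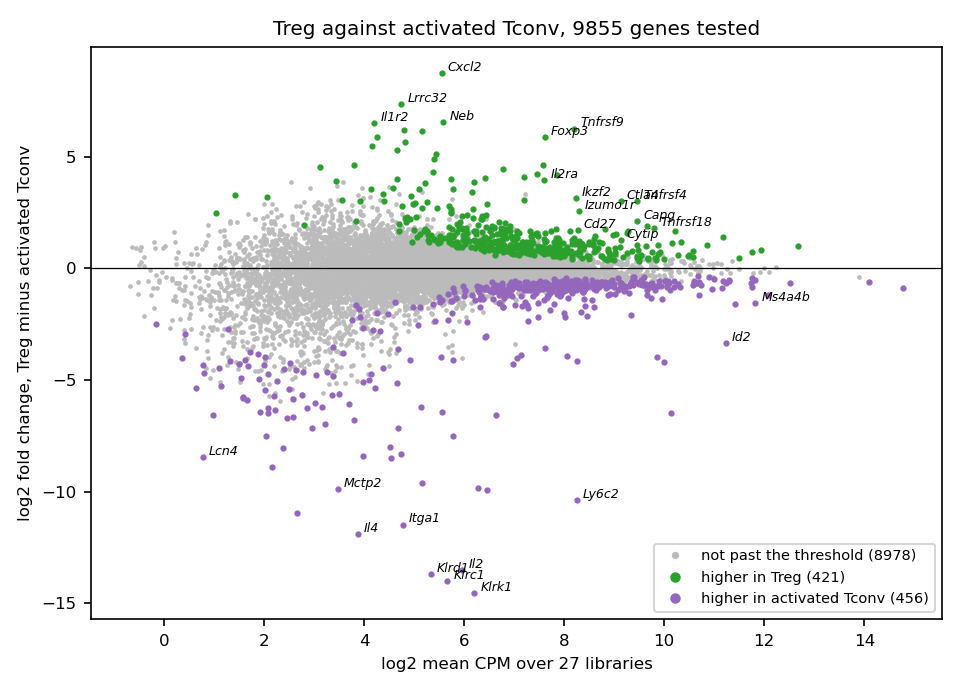
Log2 fold change, Treg minus activated Tconv, against log2 mean CPM for the 9855 genes tested. The 421 called genes higher in Tregs and the 456 higher in activated Tconv are coloured and the named genes labelled; the genes absent in Tregs form the lower fringe, where the fitted value is no bound.

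Receptors of the TNF receptor superfamily and other costimulatory receptors were among the genes most clearly higher in Tregs: 9 of the 15 tested were higher, 1 was lower (Cd226), and the list's median log2 fold change was 0.75 against -0.08 for all genes tested. Tnfrsf18 (GITR), a costimulatory receptor that all Tregs carry at high level, was 992.6, 1314 and 1841 CPM in the lowest, median and highest Treg library and 320.5, 406.1 and 480.2 CPM in activated Tconv (log2 fold change 1.79 ± 0.11; adjusted p = 2.51e-12). Tnfrsf4 (OX40) was 757.0, 996.2 and 2618 CPM in Tregs and 71.29, 137.2 and 227.7 CPM in activated Tconv (3.03 ± 0.22; adjusted p = 3.33e-11). Cd27, the receptor for CD70, was 299.6, 438.8 and 630.4 CPM in Tregs and 88.55, 132.5 and 193.3 CPM in activated Tconv (1.72 ± 0.13; adjusted p = 8.39e-11). The groups did not overlap for any of these 3 receptors. Tnfrsf9 (4-1BB), a receptor induced by antigen stimulation, varied more between Treg libraries, from 35.22 to 1448 CPM around a median of 561.9 CPM, and was 0.2721, 5.821 and 61.98 CPM in activated Tconv (6.26 ± 0.61; adjusted p = 1.43e-08). Its lowest Treg library thus lay below its highest activated Tconv library. Cd28 and Tnfrsf14 were among the 5 members that did not pass.

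The other genes with the smallest p in this direction were Izumo1r, Capg and Cytip, and none of them overlapped between groups. Izumo1r (folate receptor 4), long used as a surface marker of Tregs, was 212.8, 529.3 and 1021 CPM in Tregs and 52.11, 82.45 and 110.9 CPM in activated Tconv (log2 fold change 2.57 ± 0.19; adjusted p = 3.58e-11). Capg, which caps actin filaments, was 839.3, 1099 and 1422 CPM in Tregs and 66.7, 254.7 and 454.0 CPM in activated Tconv (2.10 ± 0.17; adjusted p = 1.77e-10). Cytip, a scaffold that binds cytohesin and loosens integrin adhesion, had the smallest difference of these, 577.7 to 942.8 CPM against 252.7 to 423.0 CPM (1.25 ± 0.11; adjusted p = 1.64e-09).

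Genes held to identify Tregs were mostly higher in them: of 26 such genes tested, 19 were higher, none was lower (1 without the Treg library of BL6 SD pool 01_05), and the median log2 fold change was 2.47. In BL6 libraries alone 14 were higher, and in BalbC libraries alone 21. The list holds Foxp3 and Il2ra, which defined the gate. Lrrc32 (GARP), which holds latent TGF-beta on the Treg surface, was 0, 40.57 and 172.7 CPM in Tregs and 0, 0.194 and 1.876 CPM in activated Tconv (7.37 ± 1.08; adjusted p = 2.26e-05). It was at 0 in 2 of the 14 Treg libraries, so that the groups overlapped there. Ebi3, a subunit of interleukin-35 and interleukin-27, was 21.38, 60.16 and 98.82 CPM in Tregs and 0, 5.001 and 25.98 CPM in activated Tconv (3.57 ± 0.68; adjusted p = 0.000693). Nrp1, Icos, Ikzf4 (Eos), Itgae, Cd83, Swap70 and Cish also rose. Among the 7 members that did not pass, the regulatory cytokine Il10 spanned 0 to 192.7 CPM in Tregs and 0 to 26.97 CPM in activated Tconv (adjusted p = 0.293), and the ectoenzyme Entpd1 (CD39) had an adjusted p of 0.620.

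Inhibitory receptors and genes linked to Tregs of non-lymphoid tissue showed a mixed pattern. Of 13 inhibitory receptors tested, 5 were higher in Tregs (Ctla4, Klrg1, Tigit, Cd200r1, Cd5), none was lower, and the median was 0.98. Klrg1, a receptor for cadherins, was 69.34, 232.4 and 929.3 CPM in Tregs and 4.772, 13.14 and 42.55 CPM in activated Tconv, with no overlap (log2 fold change 4.09 ± 0.38; adjusted p = 4.99e-09). Tigit, which competes for CD155, was 45.81, 121.0 and 375.0 CPM against 2.812, 25.34 and 73.32 CPM (2.33 ± 0.31; adjusted p = 5.68e-06). Pdcd1 (PD-1) spanned 0.05137 to 635.2 CPM in Tregs and 0 to 158.9 CPM in activated Tconv and did not pass (adjusted p = 0.0895). Of 21 genes of tissue effector Tregs tested, 6 were higher in Tregs (Klrg1, Il1rl1, Batf, Gata3, Nr4a1, Ccr8), 2 were lower (Cxcr6, Rbpj), and the median was 0.91. In BL6 libraries alone 1 of them was higher, against 6 in BalbC libraries alone. Il1rl1 was 2.684, 105.6 and 201.8 CPM in Tregs and 0, 8.182 and 21.5 CPM in activated Tconv (3.55 ± 0.72; adjusted p = 0.00138). The transcription factors Batf (0.91 ± 0.22; adjusted p = 0.00719) and Gata3 (0.90 ± 0.23; adjusted p = 0.0102) rose less. Each missed the threshold in 6 of 14 alternatives other than left-out libraries. For both these included BL6 libraries alone, each diet alone and pool labels as a replicate block, and for Batf also BalbC libraries alone.

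Some genes with large fold changes in Tregs varied widely between Treg libraries. Cxcl2, a chemokine that attracts neutrophils, was 0, 61.65 and 439.6 CPM in the lowest, median and highest Treg library and 0, 0 and 2.686 CPM in activated Tconv (log2 fold change 8.75 ± 1.47; adjusted p = 0.000152). It was over the floor of 3 counts in 11 of 14 Treg libraries and in 2 of 13 activated Tconv libraries. Il1r2, the decoy receptor for interleukin-1, was 0, 18.46 and 162.9 CPM in Tregs and 0, 0 and 13.27 CPM in activated Tconv (6.50 ± 1.53; adjusted p = 0.00557). Its value rose to 8.80 without the activated Tconv library of BL6 SD pool 62_66, and it passed the filter on low counts in 17 of the 27 fits with 1 library left out, as Cxcl2 did in 16 and Lrrc32 in 15. Neb, which encodes the muscle filament protein nebulin, was 2.055, 53.64 and 308.4 CPM in Tregs and 0, 0.3193 and 20.5 CPM in activated Tconv (6.54 ± 1.37; adjusted p = 0.00209). All 3 genes overlapped between groups at their lowest Treg libraries.

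**Figure D3:**
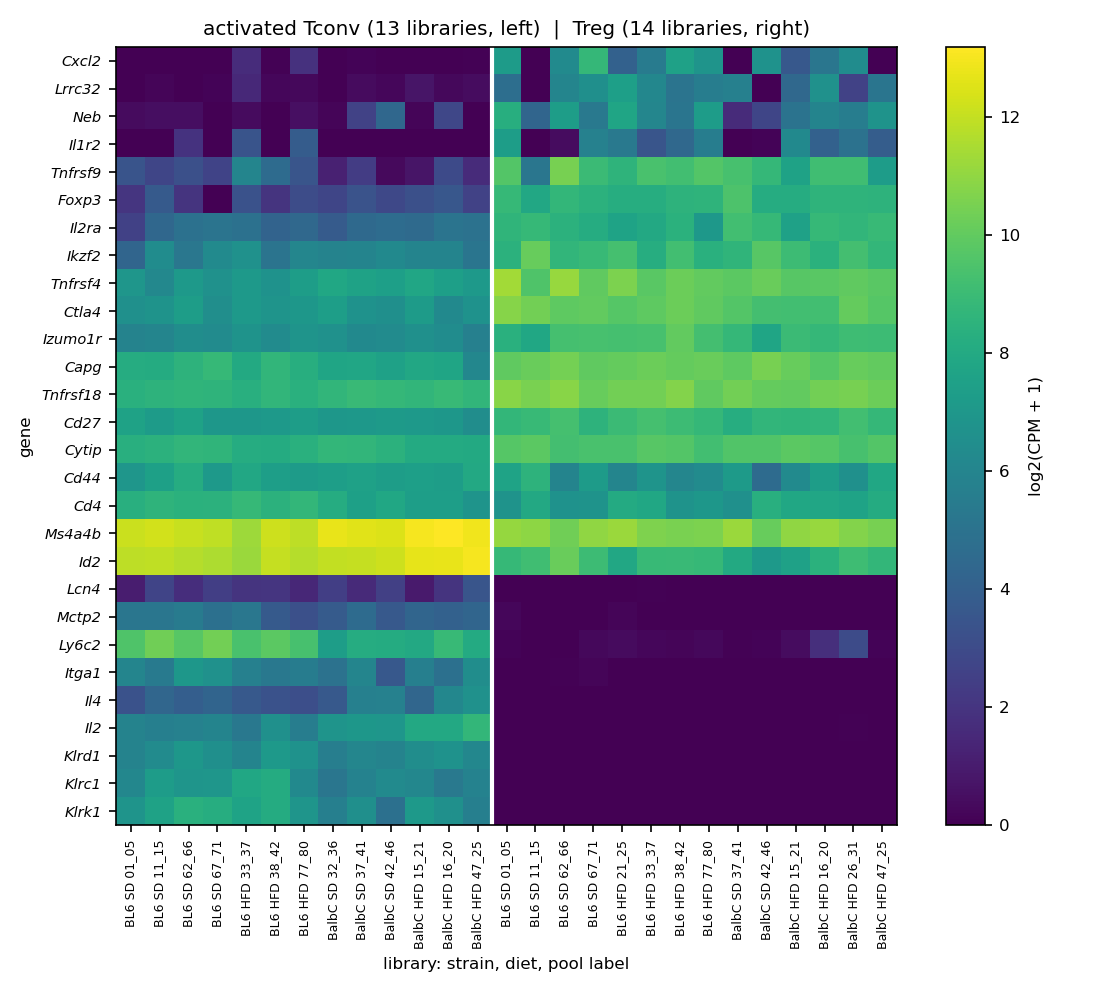
Heat map of log2(CPM + 1) for 28 named genes (rows) in the 27 rest brain libraries (columns), activated Tconv on the left and Treg on the right. The upper block of genes is higher across the Treg columns and the lower block across the activated Tconv columns, with Cd44 and Cd4 between them, while Lrrc32, Cxcl2 and Il1r2 are near 0 in single Treg libraries.

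Il2, which encodes the growth factor interleukin-2, was higher in activated Tconv (adjusted p = 2.23e-18). Il2 was 38.4, 98.46 and 427.1 CPM in the lowest, median and highest activated Tconv library and at most 0.05451 CPM in any Treg library. All Treg libraries were under the floor of 3 counts per library, which gives a level at least 393-fold higher in activated Tconv. Il4, the cytokine of type 2 responses, was at 0 in all 14 Treg libraries and 8.113, 17.95 and 101.2 CPM in activated Tconv, at least 92.2-fold higher (adjusted p = 2.7e-07). Both genes entered the test only through the activated Tconv libraries, so that their p and their lack of overlap describe levels that the filter had in part fixed. Cd40lg, the ligand by which helper T cells license B cells and dendritic cells, was 419.0, 502.5 and 583.7 CPM in activated Tconv and 0, 42.94 and 170.8 CPM in Tregs (log2 fold change -3.95 ± 0.73; adjusted p = 0.000514). Of 18 cytokines and TNF family ligands tested, 7 were higher in activated Tconv (Il2, Il4, Cd40lg, Ifng, Tnfsf14, Fasl, Tnfsf8), 2 were higher in Tregs (Ebi3, Il16; 1 without the Treg library of BalbC SD pool 42_46), and the median was -0.60. Tnf spanned 0 to 336.8 CPM in Tregs and 39.99 to 223.2 CPM in activated Tconv and did not pass (adjusted p = 0.734).

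Lectin-like receptors of the NK gene complex followed the same pattern. Klrk1 (NKG2D), an activating receptor for stress ligands, was at 0 in all 14 Treg libraries and 27.84, 116.1 and 329.9 CPM in activated Tconv, at least 461-fold higher (adjusted p = 4.65e-11). Klrc1 (NKG2A) was at 0 in all Treg libraries and 35.02, 76.29 and 275.5 CPM in activated Tconv, at least 319-fold higher (adjusted p = 1.29e-10). Klrd1 (CD94), with which NKG2A pairs, was likewise at 0 in all Treg libraries and 49.67, 81.9 and 134.0 CPM in activated Tconv, at least 253-fold higher (adjusted p = 1.46e-10). All 3 likewise entered the test through the activated Tconv libraries alone. Reads of such related genes can be split between family members by the quantification, so that single values are uncertain. CD8+ T cells and NK cells also carry these receptors, and the CD8 and NK sums above were higher in activated Tconv as well. In the 6 activated Tconv libraries with at most 72.8 CPM of summed Cd8a and Cd8b1, Klrk1 was 116 to 330 CPM, Klrc1 76.3 to 275 CPM and Klrd1 59.9 to 134 CPM. All 6 are BL6 libraries, whereas 6 of the 7 with at least 342 CPM are BalbC, so that the CD8 sum cannot be told apart from strain and sex. In these 7, Klrk1 was 27.8 to 139 CPM, Klrc1 35 to 77 CPM and Klrd1 49.7 to 104 CPM. Of the NK markers, Ncr1 was at 0 in all Treg libraries and in 4 activated Tconv libraries, with a highest value of 95.9 CPM, and Klrb1c was 0.363 to 71.2 CPM in activated Tconv. The part of NK cells in these receptor levels was not tested.

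The promoters of Ctla4, Il2 and Klrk1 are shown because these genes head the 2 directions and, for Klrk1, the receptor group. The sequences are those of RefSeq on GRCm38.p6, from 250 bases before to 50 bases after the annotated gene start, each on the strand of its gene. They lie at chr1:60908775-60909074 (+ strand) for Ctla4, chr3:37125905-37126204 (- strand) for Il2 and chr6:129623815-129624114 (- strand) for Klrk1. Capitals mark matches, on either strand, to TGTGGT (a RUNX motif) or TGANTCA (an AP-1 motif).
Ctla4: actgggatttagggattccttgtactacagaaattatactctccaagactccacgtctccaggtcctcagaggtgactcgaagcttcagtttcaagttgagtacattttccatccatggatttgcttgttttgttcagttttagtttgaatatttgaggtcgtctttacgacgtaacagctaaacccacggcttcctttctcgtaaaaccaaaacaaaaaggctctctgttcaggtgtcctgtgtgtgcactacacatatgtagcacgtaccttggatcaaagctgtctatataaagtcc
Il2: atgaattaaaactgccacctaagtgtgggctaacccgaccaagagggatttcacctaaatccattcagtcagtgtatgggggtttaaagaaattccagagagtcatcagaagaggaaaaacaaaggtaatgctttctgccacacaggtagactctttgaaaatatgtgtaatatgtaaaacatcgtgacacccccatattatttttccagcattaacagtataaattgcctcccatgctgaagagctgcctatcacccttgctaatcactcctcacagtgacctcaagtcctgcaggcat
Klrk1: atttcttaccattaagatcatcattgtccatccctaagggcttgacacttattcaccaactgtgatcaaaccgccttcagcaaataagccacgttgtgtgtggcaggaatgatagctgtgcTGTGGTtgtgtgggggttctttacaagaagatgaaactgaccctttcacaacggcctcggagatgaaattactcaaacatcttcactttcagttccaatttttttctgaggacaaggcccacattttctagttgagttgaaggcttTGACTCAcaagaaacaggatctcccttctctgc
In the Klrk1 promoter the RUNX match began 129 bases before the start and the AP-1 match 17 bases after it, whereas the windows of Ctla4 and Il2 held neither. Across all 32851 promoters of the table, 16.8% held TGTGGT, 7.81% TGANTCA, 3.65% TGTTTAC (a forkhead motif) and 3.98% TCACACC (a T-box motif). Of the 10 genes with the smallest p in each direction, 9 matched the table on each side. TGTGGT was found for 4 of the genes higher in activated Tconv (Klrc1, Klrk1, Ly6c2, Mctp2) and for 2 of those higher in Tregs (Cytip, Izumo1r). TGANTCA was found for Klrk1 and Ms4a4b, TCACACC for Mctp2, and TGTTTAC for none of the genes. These matches describe letters in the window only.

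The remaining genes with the smallest p in activated Tconv had diverse roles. Itga1, a collagen-binding integrin chain and residency marker, was at most 0.1505 CPM in Tregs and 11.61, 49.93 and 124.4 CPM in activated Tconv, at least 171-fold higher (adjusted p = 2.02e-11). Id2, an inhibitor of E proteins that favours effector cells, was present in both populations, at 140.2, 451.1 and 1155 CPM in Tregs and 2390, 4028 and 8226 CPM in activated Tconv (log2 fold change -3.34 ± 0.27; adjusted p = 2.2e-10). Ly6c2, a surface antigen of effector and memory T cells, was 0, 0.1408 and 7.086 CPM in Tregs and 161.6, 660.7 and 1350 CPM in activated Tconv (-10.37 ± 0.91; adjusted p = 1.92e-09), and its fold change was -10.99 without the Treg library of BalbC HFD pool 26_31. None of these 3 genes overlapped between groups, which for Itga1 the filter had fixed. Ms4a4b, a membrane protein of T cells with close paralogs, was 1096, 1824 and 2385 CPM in Tregs and 2452, 5002 and 9286 CPM in activated Tconv (-1.54 ± 0.15; adjusted p = 2.22e-08). Mctp2, a membrane protein with calcium-binding domains, was at most 0.1579 CPM in Tregs and 8.274, 18.96 and 44.31 CPM in activated Tconv (adjusted p = 1.45e-08). No Treg library exceeded 10 counts of Mctp2, so that it entered the test through activated Tconv alone and its p is not read as support. Lcn4, a lipocalin, was low throughout, at most 0.05496 CPM in Tregs and 0.9346, 3.014 and 9.944 CPM in activated Tconv, at least 10.7-fold higher (adjusted p = 4.99e-09), and it too entered the test through activated Tconv alone.

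Genes of type 1 helper and cytotoxic T cells were often higher in activated Tconv: of 28 tested, 17 were higher there, none was higher in Tregs, and the median log2 fold change was -3.05. Among the 17, Klrk1, Klrc1 and Klrd1 entered the test through the activated Tconv libraries alone, so that their calls are not read as support. In BL6 libraries alone 12 were lower in Tregs, and in BalbC libraries alone 14. Gzmk, a granzyme, was 76.84, 166.3 and 268.9 CPM in activated Tconv and over the floor of 3 counts in 1 of 14 Treg libraries, at 6.565 CPM (-9.83 ± 1.18; adjusted p = 9e-07). Ccl5, a chemokine for effector T cells, was 442.6, 1855 and 4020 CPM in activated Tconv and 12.35, 78.36 and 369.5 CPM in Tregs (-4.21 ± 0.52; adjusted p = 1.35e-06). Ifng, the defining cytokine of type 1 cells, was 273.1, 544.1 and 1341 CPM in activated Tconv and 0, 15.7 and 169.0 CPM in Tregs (-4.15 ± 0.88; adjusted p = 0.00239). These 3 genes did not overlap between groups. As Gzmk was over the floor in 1 Treg library only, it entered the test almost wholly through activated Tconv. Its p and lack of overlap are therefore not read as support. The factor Tbx21 (T-bet) spanned 0 to 34.89 CPM in Tregs and 8.906 to 85.21 CPM in activated Tconv and did not pass (adjusted p = 0.138), and Gzmb and Prf1 did not pass either (adjusted p = 0.791 and 0.901). Cd8a (adjusted p = 0.00418) and Cd8b1 (adjusted p = 0.0473) were also lower in Tregs, with a log2 fold change of Cd8a of -8.79 to -6.51 with 1 library left out (lowest without Treg BalbC HFD pool 16_20, highest without activated Tconv BL6 SD pool 01_05), although Cd8b1 missed the threshold in 20 of 27 fits with 1 library left out. In BL6 libraries without the activated Tconv library of pool 01_05, which leaves the 6 with low CD8 sums, 11 of the 28 were lower in Tregs. The sum of the 3 NK cell markers was 11.9 to 71.2 CPM in these 6 libraries, against at most 0.117 CPM in Tregs, and the part of CD8+ T cells and NK cells in the type 1 and cytotoxic genes was not tested. In those 6 libraries, Gzmk was 76.8 to 269 CPM and Ccl5 was 443 to 2510 CPM.

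**Figure D4:**
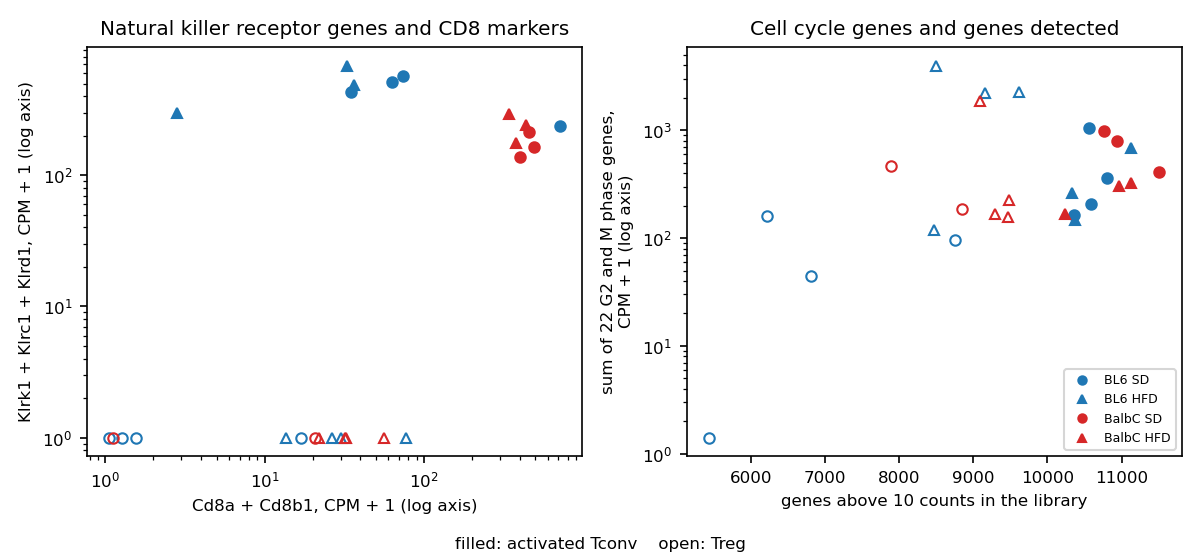
Left, summed CPM of Cd8a and Cd8b1 against summed CPM of Klrk1, Klrc1 and Klrd1 per library; right, genes with more than 10 counts against the summed CPM of 22 G2 and M phase genes; filled points are activated Tconv and open points Treg. On the left, the 6 activated Tconv libraries with low CD8 sums, all BL6, lie beside 7 with high CD8 sums, 6 of them BalbC, and on the right 4 HFD Treg libraries reach the highest cell cycle sums, up to 3980 CPM.

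Genes of other helper lineages gave few calls: of 6 tested, Gata3 was higher in Tregs and Il4 in activated Tconv, and without the Treg library of BL6 SD pool 01_05, BL6 SD pool 11_15 or BL6 HFD pool 33_37 the higher count was 2. Ccr6, the CCL20 receptor of Th17 cells, did not pass (log2 fold change 3.34 ± 1.12; adjusted p = 0.0588), nor did Bcl6, the factor of follicular helper cells (adjusted p = 0.536).

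Receptors that guide migration and residency differed in both directions. Of 16 chemokine and egress receptors tested, 3 were higher in Tregs (Ccr7, S1pr1, Ccr8), 3 were higher in activated Tconv (Cxcr6, Gpr183, Cxcr3), and the median was 0.58. In BL6 libraries alone 0 were higher and 1 lower in Tregs, in BalbC libraries alone 2 and 2, in SD libraries alone 0 and 0, and with pool labels as a replicate block 0 and 3. Without the Treg library of BL6 SD pool 01_05 or that of pool 11_15, 5 were higher. Cxcr6, the receptor for CXCL16 and a residency marker, was 1598, 2089 and 3270 CPM in activated Tconv and 0, 9.377 and 459.7 CPM in Tregs (-6.48 ± 1.07; adjusted p = 0.000128; -7.12 without the Treg library of BL6 SD pool 62_66). The groups did not overlap for Cxcr6, although it missed the threshold in BL6 libraries alone. Ccr7, which leads cells to lymph nodes, was 73.59, 111.2 and 284.8 CPM in Tregs and 14.42, 79.06 and 108.5 CPM in activated Tconv (1.15 ± 0.29; adjusted p = 0.00937). S1pr1, the receptor for egress into blood and lymph, was 152.3, 418.2 and 618.6 CPM in Tregs and 130.3, 214.8 and 360.0 CPM in activated Tconv (0.77 ± 0.20; adjusted p = 0.0105). Of 18 residency genes tested, 7 were higher in Tregs (Fos, Junb, Dusp1, Itgae, Ppp1r15a, Jun, Nr4a1), 3 were higher in activated Tconv (Itga1, Cxcr6, Crtam), and the median was 0.64. The members higher in Tregs, other than Itgae, are immediate early or stress genes that rise on any stimulation. Cd69, the classical residency and activation antigen, was 12.15, 463.0 and 929.2 CPM in Tregs and 260.5, 545.2 and 891.8 CPM in activated Tconv and did not pass (adjusted p = 0.832).

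With all libraries, integrin partners were called in both directions. Of 15 integrin and adhesion genes tested, 5 were higher in Tregs (Itgb7, Icam1, Itgae, Cd6, Selplg), Itgb1 was higher in activated Tconv, and the median was 0.12. With 1 library left out, 3 to 6 were higher, 3 of them without the Treg library of BL6 SD pool 62_66, BalbC SD pool 37_41 or BalbC HFD pools 16_20, 26_31 or 47_25, and 1 to 2 were lower, 2 without that of BL6 HFD pool 77_80 or BalbC SD pool 42_46. Itgb7, the beta chain that pairs with Itgae and Itga4, was 462.4, 901.0 and 1236 CPM in Tregs and 101.4, 253.2 and 514.6 CPM in activated Tconv (1.67 ± 0.21; adjusted p = 1.31e-06). Itgae (CD103), which binds E-cadherin, was 0, 106.7 and 220.3 CPM in Tregs and 0, 4.526 and 21.63 CPM in activated Tconv (4.0 ± 0.85; adjusted p = 0.00225). Icam1, the ligand of LFA-1, rose by 1.78 ± 0.25 (adjusted p = 1.24e-05). Itgb1, the beta chain that pairs with Itga1, fell by 1.34 on the log2 scale (SE 0.38; adjusted p = 0.0228). Over 14 alternatives other than left-out libraries, Itgb1 was -2.21 to -0.23 and missed the threshold in 7. These included each strain alone, each diet alone and pool labels as a replicate block. In BalbC, Itgb1 was 655 to 1240 CPM in Tregs and 779 to 1340 CPM in activated Tconv. Itga4, whose product helps T cells enter the brain, was 115.4 to 553.4 CPM in Tregs and 183.0 to 554.4 CPM in activated Tconv and did not pass (adjusted p = 0.721).

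Of 19 immediate early genes and feedback regulators of NF-kappaB tested, 10 were higher in Tregs, 8 did not pass, Dusp2 was lower (with 1 library left out, 1 to 2 genes were), and the median was 1.15. Nfkbia, the inhibitor that NF-kappaB itself induces, was 431.6, 884.8 and 1324 CPM in Tregs and 177.3, 291.2 and 395.1 CPM in activated Tconv, with no overlap (1.59 ± 0.16; adjusted p = 3.86e-08). The AP-1 subunit Fos was 1228, 2397 and 7092 CPM in Tregs and 295.0, 1396 and 2596 CPM in activated Tconv (1.40 ± 0.18; adjusted p = 2.45e-06). Junb was 853.6, 1561 and 2759 CPM in Tregs and 129.5, 797.3 and 1106 CPM in activated Tconv (1.68 ± 0.24; adjusted p = 1.1e-05). Both AP-1 genes overlapped between groups. Dusp2, a phosphatase of MAP kinases, was 39.53, 107.0 and 169.6 CPM in Tregs and 168.0, 335.8 and 527.5 CPM in activated Tconv (-1.62 ± 0.21; adjusted p = 4.55e-06). Such genes also respond to tissue dissociation and sorting, and the part of handling in their levels was not tested. Of this list, 4 were higher in Tregs in BL6 libraries alone (3 without the activated Tconv library of pool 01_05) and 10 in BalbC libraries alone.

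Of 25 genes of T cell receptor signalling tested, 2 were higher in Tregs (Sla, Cd6), 5 were lower (Themis, Dusp6, Lat, Cd3g, Ptpn22), and the median was -0.03. The higher count was 1 in 13 of the 27 fits with 1 library left out. Sla, an adaptor that dampens receptor signals, was 342.6, 554.8 and 999.8 CPM in Tregs and 164.8, 301.6 and 374.3 CPM in activated Tconv (1.12 ± 0.15; adjusted p = 5.31e-06). Themis, which tunes receptor signals during thymic selection, was 0, 13.2 and 122.7 CPM in Tregs and 306.1, 360.4 and 481.5 CPM in activated Tconv, with no overlap (-3.58 ± 0.70; adjusted p = 0.00087). Lat, the central adaptor, differed little (-0.38 ± 0.09; adjusted p = 0.00878), and the kinases Lck and Zap70 did not pass.

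Along the interleukin-2 axis, where activated Tconv held the cytokine and Tregs the receptor chain Il2ra, 4 of 16 genes tested were higher in Tregs (Il2ra, Stat5b, Jak3, Cish), 2 were lower (Il2, Bcl2), and the median was 0.17. The higher count was 1 in BL6 libraries alone, 5 in BalbC libraries alone, 2 in SD libraries alone and 7 with DESeq2. Stat5b, the factor activated downstream of the receptor, was 39.8, 118.6 and 390.9 CPM in Tregs and 27.03, 44.6 and 97.07 CPM in activated Tconv (1.76 ± 0.31; adjusted p = 0.000304). Bcl2, a survival factor, was 8.702, 135.5 and 244.7 CPM in Tregs and 384.9, 588.3 and 860.4 CPM in activated Tconv, with no overlap (-2.13 ± 0.26; adjusted p = 1.35e-06). Il2rb, the shared beta chain, did not pass (0.62 ± 0.24; adjusted p = 0.119), nor did Il7r (-0.25 ± 0.18; adjusted p = 0.503).

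Of 37 transcription factors of CD4+ T cells tested, 9 were higher in Tregs (Foxp3, Ikzf2, Hif1a, Id3, Nfkb2, Ikzf4, Batf, Gata3, Tox), 4 were lower (Id2, Stat4, Ikzf1, Tcf7), and the median was 0.46. The lower count was 2 to 5 with 1 library left out. It was 2 in 9 of the 27 fits, those without the activated Tconv library of BL6 HFD pool 33_37, BalbC SD pool 37_41 or BalbC HFD pools 15_21 or 16_20, or the Treg library of BL6 HFD pool 77_80, BalbC SD pool 42_46 or BalbC HFD pools 16_20, 26_31 or 47_25. Id3, which like Id2 blocks E proteins, moved opposite to Id2, at 17.74, 88.64 and 172.5 CPM in Tregs and 1.579, 12.26 and 28.16 CPM in activated Tconv (2.80 ± 0.44; adjusted p = 6.08e-05). Hif1a, the oxygen-sensing factor, was 146.3, 393.9 and 594.9 CPM in Tregs and 128.4, 184.8 and 320.9 CPM in activated Tconv (1.07 ± 0.16; adjusted p = 2.98e-05). Among 18 genes of naive and memory T cells tested, 4 were higher in Tregs (among them Id3, Ccr7 and S1pr1), 3 were lower (Pde3b, Slfn2, Tcf7), and the median was -0.06. The lower count was 1 in 18 of the 27 fits with 1 library left out. Pde3b, a phosphodiesterase that Foxp3 represses, was 0, 0 and 6.385 CPM in Tregs and 23.13, 79.14 and 104.5 CPM in activated Tconv, with no overlap (-9.61 ± 1.30; adjusted p = 6.41e-06). Its fold change was -12.71 without the Treg library of BL6 HFD pool 77_80. Pde3b was over the floor of 3 counts in 1 Treg library only, so that it entered the test almost wholly through activated Tconv. Its p and lack of overlap are therefore not read as support. Tcf7, the factor of memory and stem-like cells, was only just past the threshold (-1.31 ± 0.41; adjusted p = 0.0448).

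With all libraries, glycolytic genes were called only towards Tregs, and genes of S100 proteins and annexins only towards activated Tconv. Of 16 glycolytic genes tested, 6 were higher in Tregs (Pkm, Gpi1, Gapdh, Aldoa, Pfkp, Slc2a3), none was lower, and the median was 0.65. None of the 16 passed in BL6 libraries alone, and 10 were higher in Tregs in BalbC libraries alone. Pkm, the pyruvate kinase that ends glycolysis, was 336.3, 1211 and 1702 CPM in Tregs and 82.82, 371.2 and 909.9 CPM in activated Tconv (1.89 ± 0.28; adjusted p = 2.71e-05). Of 17 genes of S100 proteins, annexins and galectins tested, 7 were lower in Tregs, none was higher (0 to 2 with 1 library left out, highest without the Treg library of BL6 HFD pool 21_25), and the median was -0.47. In BL6 libraries alone 1 of them was lower, and in BalbC libraries alone 8. S100a6 was 186.2, 411.1 and 748.7 CPM in Tregs and 506.5, 845.9 and 1177 CPM in activated Tconv (-1.11 ± 0.17; adjusted p = 2.99e-05). Anxa1, an anti-inflammatory annexin, was 0, 24.39 and 53.17 CPM in Tregs and 159.7, 271.6 and 375.3 CPM in activated Tconv, with no overlap (-3.89 ± 0.84; adjusted p = 0.00259).

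Other groups gave few calls, set here beside the 4.27% of all genes that were higher in Tregs and the 4.63% that were lower. Of 27 interferon-stimulated genes tested, Bst2 and Gbp7 were higher in Tregs, with a list median of 0.07, and Gbp7 missed the threshold in 18 of 27 fits with 1 library left out. Of 13 TGF-beta pathway genes, Lrrc32 was higher and the accessory receptor Tgfbr3 lower in Tregs, with a list median of -0.02. The higher count of the TGF-beta genes was 0 to 2 with 1 library left out, and the fold change of Tgfbr3 was -4.81 with all libraries and -8.38 without the Treg library of BL6 SD pool 01_05. With 2 genes called, neither list is read as standing apart from all genes tested. None of 7 genes of purine metabolism and signalling passed, including the adenosine-forming enzymes Entpd1 and Nt5e (CD73, 1.03 log2; adjusted p = 0.082), with a median of 0.47, although 1 passed without the Treg library of BL6 SD pool 11_15. At an unadjusted p under 0.05 edgeR gave 1 of these, and DESeq2 called 1 after adjustment. None of 4 MHC class II genes passed, with a median of 1.18, and Cd74, the invariant chain, had an adjusted p of 0.0631 (3.35 ± 1.14). Cd74 was 2.71 to 4.39 with 1 library left out and passed in 5 of the 27 fits, those without the activated Tconv library of BL6 SD pool 11_15 (4.39) or the Treg library of BL6 SD pool 11_15, BalbC SD pools 37_41 or 42_46 or BalbC HFD pool 16_20. At an unadjusted p under 0.05 edgeR gave 2 of the 4, and DESeq2 called 2 after adjustment.

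**Figure D5:**
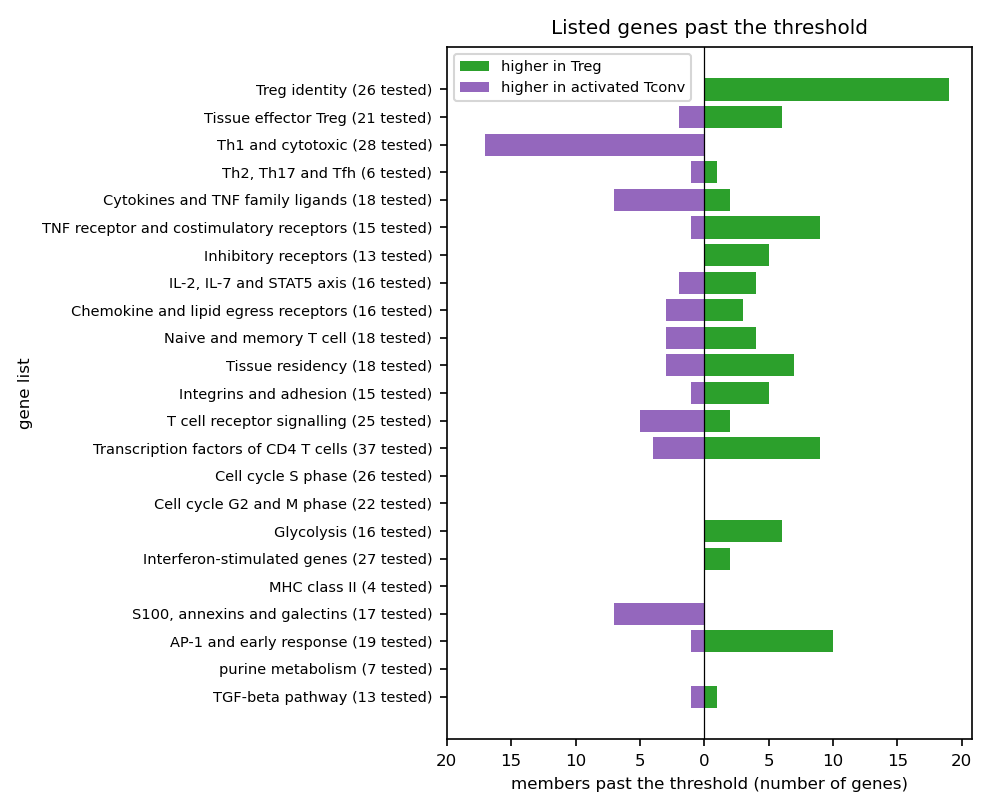
Number of genes past the threshold in each gene list, split into those higher in Tregs and those higher in activated Tconv, with the number tested beside each list name. Treg identity genes (19 of 26) and TNF receptor genes (9 of 15) are mostly higher in Tregs, type 1 and cytotoxic genes (17 of 28) higher in activated Tconv, and neither cell cycle list has a called gene.

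The calls of proliferation genes depended on the test. With edgeR on all libraries, none of 26 S phase genes and none of 22 G2 and M phase genes passed between Tregs and activated Tconv, with medians of -0.33 and -1.50. Without the Treg library of BL6 SD pool 01_05, BL6 HFD pool 21_25 or BalbC SD pool 37_41, 1 S phase gene was higher in Tregs. At an unadjusted p under 0.05 edgeR gave 2 S phase and 1 G2 and M phase genes, and DESeq2 called 2 S phase genes (1 lower in Tregs) and 8 G2 and M phase genes (7 lower) after adjustment. With limma-voom and the pool label as a random effect, 7 S phase and 6 G2 and M phase genes were lower in Tregs and none was higher. With edgeR on SD libraries alone, 9 of the G2 and M phase genes were lower in Tregs and none higher, and on HFD libraries alone 2 were higher and none lower. The summed CPM of the 22 genes was 0.409, 126 and 465 in the lowest, median and highest of the 6 SD Treg libraries and 117, 1050 and 3980 in the 8 HFD Treg libraries, so that the diets overlapped. In activated Tconv it was 161, 413 and 1050 under SD and 147, 280 and 677 under HFD. In 4 HFD Treg libraries (BL6 pools 21_25, 33_37 and 77_80, BalbC pool 47_25) all 22 genes had more than 10 counts, whereas SD Treg libraries had 0 to 8 of them. The number of genes detected moved the same way, from 5433 to 8847 in SD Tregs and from 8466 to 9610 in HFD Tregs, and its part in these levels was not tested. The 3 Treg libraries with fewer than 7000 genes were all BL6 SD.

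The test of whether the difference between Tregs and activated Tconv changed with diet gave 39 genes (0.396% of genes tested), all with a larger Treg-to-Tconv value under HFD. They included 5 of the 22 G2 and M phase genes and 1 of the 26 S phase genes. Top2a, the topoisomerase of dividing cells, was 0 to 0.06 CPM in the 6 SD Treg libraries. In HFD Tregs it was 7.95, 93.5, 0 and 63.2 CPM in the 4 BL6 libraries and 6.43, 40.4, 39.5 and 1.76 CPM in the 4 BalbC libraries (interaction adjusted p = 0.00503). In activated Tconv Top2a was 7.78 to 66.6 CPM over both diets. The 2 genes with smaller p, 1500009L16Rik and Tmem101, had interaction adjusted p of 6.82e-05 and 0.000491 and were likewise near 0 in SD Tregs. Lgals9, a galectin, was detected throughout and differed less (interaction 1.09 ± 0.25 log2; adjusted p = 0.0419). The count of 39 was unstable: it was 245 with DESeq2, 4 with limma-voom with sample quality weights, 0 with pool labels as a replicate block and 6 to 136 with 1 library left out, lowest without activated Tconv pools BL6 HFD 38_42, BalbC HFD 16_20 or BalbC HFD 47_25 and highest without the Treg pool BalbC SD 37_41.

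Strain, which here also means sex, changed the difference for 595 genes (6.04% of genes tested), 192 with a larger Treg-to-Tconv value in BalbC and 403 with a smaller one. With DESeq2 this split turned, with more larger than smaller values in BalbC, as given under the dependence on processing. Pkm had a median of 581 CPM in BL6 and 131 CPM in BalbC activated Tconv, against 1260 and 1190 CPM in Tregs (interaction 1.97 log2). Junb had medians of 972 and 184 CPM in BL6 and BalbC activated Tconv, against 1900 and 1350 CPM in Tregs (interaction 1.59). Itgb7 had medians of 393 and 194 CPM in activated Tconv, against 839 and 1090 CPM in Tregs (interaction 1.38). For all 3 genes the strains were further apart in activated Tconv than in Tregs. Id2 had medians of 3370 CPM in BL6 and 5670 CPM in BalbC activated Tconv, against 477 and 300 CPM in Tregs (interaction -1.42), so that its difference was larger in BalbC. Tnfrsf4 had medians of 121 and 183 CPM in activated Tconv and of 1110 and 908 CPM in Tregs (interaction -1.14). By list, 5 of 15 integrin and adhesion genes, 4 of 19 immediate early genes and 3 of 16 glycolytic genes had a positive strain interaction and none a negative one. Of 17 genes of S100 proteins, annexins and galectins, 4 had a negative one (S100a10, S100a11, S100a13, Crip1) and 1 a positive one (Anxa6). Of 25 genes of T cell receptor signalling, Cd3d and Cd3g had a negative and 3 a positive one, and of 28 type 1 and cytotoxic genes Ccl5 and Id2 had a negative and Ly6c2 a positive one. Of 18 residency genes, 4 had a positive one and Rgs2 a negative one. BalbC activated Tconv libraries also had the lowest TMM factors, 0.758 to 0.986 against 0.988 to 1.123 in all others, and CD8 sums of 342 to 492 CPM, so that strain cannot be told apart from these. The 3 Treg libraries with fewer than 7000 genes were all BL6 SD, and counts without them are given under the dependence on processing.

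The same comparison in the hypothalamus used 16 Treg and 16 activated Tconv libraries of the same experiment. Not all hypothalamic Treg libraries stood apart by their markers. In 4 of the 16, Foxp3 was at or under the highest hypothalamic activated Tconv library, and the same held for Ikzf2 in 4, for Ctla4 in 4 and for Il2ra in 5, of which 3 were at 0. One of these, BL6 SD pool 11_15, had 9894 genes with more than 10 counts but 1.34 CPM of Foxp3, 30.4 CPM of Ikzf2, 0 of Il2ra and 7.78 CPM of Ctla4. Its Cd3e was 42.8 CPM, against 421 to 2900 CPM in the other hypothalamic Treg libraries. The results that follow are therefore given with and without this library. Of the 20 genes with the smallest p in the rest brain, all 20 had the same direction there and 17 passed the test, as many as without the library. Over all genes, 927 of 10845 tested passed in the hypothalamus, 141 higher and 786 lower in Tregs. The 20 hold the gate genes Foxp3 and Il2ra and genes that entered the rest brain test through activated Tconv alone. For these the shared direction is not read as support. Foxp3 was 0.0985, 189 and 964 CPM in hypothalamic Tregs and 0, 3.97 and 13.6 CPM in activated Tconv, so that the groups overlapped (5.51 ± 0.76 log2, and 5.60 ± 0.74 without the library). Ikzf2 was 0, 266 and 2480 CPM against 0.791, 21.8 and 51.7 CPM, and likewise overlapped (4.43 ± 0.64, and 4.40 ± 0.63 without it). Il2 was 17.2, 55 and 98.5 CPM in hypothalamic activated Tconv and at most 0.239 CPM in Tregs, and Klrk1 was 7.05, 64.6 and 253 CPM and at 0 in all Tregs. The 3 that missed the threshold were Cytip (adjusted p = 0.706), Lcn4 (adjusted p = 0.180) and Mctp2 (adjusted p = 0.398). The difference itself changed with tissue for Itga1, Lcn4 and Mctp2 among these 20 (adjusted p = 0.00223, 0.00662 and 0.00281) and for 436 genes in all (4.02% of 10845 tested), 359 with a larger Treg-to-Tconv value in the rest brain. Without the hypothalamic library of BL6 SD pool 11_15, Lcn4 and Mctp2 still passed (adjusted p = 0.00262 and 0.000945), Itga1 did not (0.21 ± 1.21 log2; adjusted p = 0.991), and 764 genes passed in all (695 larger in the rest brain, 69 smaller). Itga1 was 296 CPM in that library and at most 0.23 CPM in the other hypothalamic Treg libraries. Mctp2 reached 274 CPM in another one, whereas rest brain Tregs held at most 0.156 and 0.163 CPM of them on the scale of that fit. Hypothalamic Treg libraries had 2108 to 9894 genes with more than 10 counts (median 4476), fewer than rest brain Tregs, and the part of this in the tissue difference was not tested. The 15 pool labels of the rest brain and 17 of the hypothalamus had 11 in common, on 20 rest brain and 21 hypothalamus libraries, and the fit did not model this sharing. With the pool labels of each tissue as a replicate block, 1994 genes passed for tissue, 1986 of them larger in the rest brain and 8 smaller.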

How the data were processed

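Reads of the sorted cells, from SMARTer mRNA libraries sequenced paired-end, had been quantified by the authors with Salmon in the nf-core/rnaseq pipeline on mm10, and the values used here are the deposited estimated counts (NumReads) per RefSeq transcript name, which the authors had not normalized. The names were joined to genes (34850 of 35034 names, 99.5%, holding at least 99.2% of the reads of every library), summed per gene to 24461 features and rounded to whole numbers, because the count model needs them. Salmon shares reads between near-identical transcripts, which can move counts between paralogs. Deposited TPM values and the libraries of an earlier pilot were not used.

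Tregs and activated Tconv were compared with the quasi-likelihood test of edgeR 4.0.16 in R 4.3.3, with TMM scaling, strain and diet as terms and p-values adjusted by Benjamini-Hochberg over the genes that exceeded 10 counts in 13 or more libraries. All tests were two-sided. Interactions of cell type with diet, strain and tissue were tested in the same way, the last with the 32 hypothalamus libraries. Positive values mean higher in Tregs, and SE is the standard error of the log2 fold change. Where every Treg library was at or under 3 counts, the ratio of means was computed against 3 counts per library, and the interval of counting error is not given for single genes. Library totals set the precision: the floor of 3 counts was 0.103 to 0.331 CPM.

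Named genes were the 4 Treg markers and the gate genes, the 10 genes with the smallest p in each direction, the 5 largest changes in each direction with a mean of at least 10 CPM, up to 4 members of each gene list by p, and up to 3 genes in each direction of each interaction. Gzmk, Ccl5, Ifng, the CD8 genes and the list members printed without meeting this rule were chosen after their values were seen. A few of the named genes are not reported here. The members and lists were chosen with earlier results of these data known. Labels mark each library with a pool label that Treg and activated Tconv libraries share, without saying in words what it stands for. Deviations from the group means within the 12 pools with both populations correlated by -0.009 to 0.046, so that the label was not treated as a pairing. P-values measure the spread between pools of mice. Alternatives were DESeq2 1.42.0, its size factors in edgeR, other filters, limma 3.58.1 (voom with quality weights), the pool label as a block or random effect, no strain and diet terms, each strain or diet alone and each library left out in turn, and, chosen after seeing the data, fits without libraries with high CD8 sums or few genes or without a hypothalamic Treg library with low Treg markers. Scripts were tested on simulated data. A gene that missed the threshold is not shown to have equal levels, since smaller differences can be missed at these numbers of libraries. Figures were drawn with matplotlib 3.10.9.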

Additional observations from a re-analysis of the deposited data

Results flagged for a closer look

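Outlying libraries were sought for 27 measures in each population of each strain, which gave 108 sets of values, and 16 were found. Chance alone flags some such sets, at a rate that was not measured here. In Tregs, Foxp3 was 718 CPM in BalbC SD pool 37_41 against at most 377 CPM in the other BalbC Treg libraries. Ikzf2 was 1120 CPM and Cd44 373 CPM in BL6 SD pool 11_15, with next values of 618 and 200 CPM. Izumo1r was low, at 213 CPM, in BalbC SD pool 42_46, next to 433 CPM. Id2 was 1150 CPM in BL6 SD pool 62_66, next to 565 CPM, and Ly6c2 was 7.09 CPM in BalbC HFD pool 26_31, next to 2.41 CPM. Summed Cd8a and Cd8b1 was 76.5 CPM in BL6 HFD pool 77_80, next to 29.2 CPM, and summed neuronal markers were 1.19 CPM in BL6 SD pool 62_66, next to 0.474 CPM.

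In activated Tconv, BalbC HFD pool 47_25 had 243 CPM of Cd44 (next 183), 88.6 CPM of Cd27 (next 125) and 66.7 CPM of Capg (next 185). Il2 was 98.5 CPM in BL6 HFD pool 38_42, next to 60.9 CPM. Summed Cd8a and Cd8b1 was 714 CPM in BL6 SD pool 01_05, next to 72.8 CPM. Summed microglial markers were 852 CPM and summed neuronal markers 95.6 CPM in BalbC SD pool 42_46, with next values of 136 and 10.4 CPM. Summed B cell markers were 87.7 CPM in BL6 SD pool 11_15, next to 6.48 CPM.

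The difference between Tregs and activated Tconv itself changed with strain, diet or tissue, by the interaction term of edgeR, for some of the 103 named genes. With strain (BalbC minus BL6, log2) this held for 18 genes: Cd4 1.43, Tnfrsf4 -1.14, Id2 -1.42, Ly6c2 4.57, Neb -6.19, Junb 1.59, Itgb7 1.38, Icam1 1.46, Pkm 1.97, Gpi1 1.61, Bst2 1.64, Crip1 -1.23, S100a13 -1.53, Coro1a 1.47, 9930111J21Rik1 4.13, Ppia -1.49, Taf9 -1.96 and Rpl36al -1.55. With diet (HFD minus SD) it held for Top2a 11.57, 1500009L16Rik 11.83 and Tmem101 12.11, whose sizes are no bounds because SD Tregs were near 0. With tissue (rest brain minus hypothalamus) it held for 15 genes: Itga1 -8.13, Lcn4 -6.51, Mctp2 -8.67, Lrrc32 -5.21, Il4 -6.24, Fos 1.53, Junb 1.25, Adora2a 6.28, Coro1a 1.21, Det1 11.29, Coil 10.80, Dyrk2 10.03, Tyrobp -16.03, C1qb -13.92 and Rgs18 -10.64. Tyrobp and C1qb are genes of microglia and macrophages, and C1qb reached 3850 CPM in a hypothalamic Treg library. Without the hypothalamic Treg library of BL6 SD pool 11_15, which had 42.8 CPM of Cd3e and 351 CPM of Tyrobp, the value for Itga1 was 0.21 (adjusted p = 0.991) and for Tyrobp -15.27 (adjusted p = 5.41e-05), and C1qb and Rgs18 no longer passed the filter on low counts.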

How the results depend on the processing

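Of the 67 named genes past the threshold, none changed direction under any alternative, 66 stayed past it in each fit with 1 library left out in which they could be tested, and 34 stayed past it under all of the other alternatives, among them Ikzf2, Ctla4, Tnfrsf18 and Id2. The 34 also hold the gate genes Foxp3 and Il2ra, and genes such as Il2 and Klrk1 that entered the test through activated Tconv alone. For these, staying past the threshold is not read as support. The named genes other than the markers and gate genes were chosen by results of these same libraries, so that these fits are no independent support. Counts depended on the setting, and the cause was not tested. The 877 calls (421 higher, 456 lower in Tregs) became 1487 (789, 698) with DESeq2, 5260 (698, 4562) with a filter of more than 10 counts in total, 2525 (1972 lower) with limma-voom with quality weights, 2306 (1993 lower) with the pool label as a random effect, 488 (164 higher) with the pool label as a replicate block, 220 (108, 112) in BL6 alone, 173 (70, 103) in BL6 without the activated Tconv library of pool 01_05, 1932 (957, 975) in BalbC alone, 353 (93, 260) in SD alone, 1778 (785, 993) without the 3 sparse Treg libraries and 467 (261, 206) beyond 2-fold. With 1 library left out they were 691 to 1229, lowest without activated Tconv BalbC HFD pool 16_20 and highest without Treg BL6 SD pool 11_15.

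The 39 diet interactions became 245 (208, 37) with DESeq2, 15 (15 higher) with the total filter, 4 (3, 1) with limma-voom with quality weights, 0 (0 higher) with the replicate block, 24 (22, 2) without the sparse libraries and 19 (17, 2) in BalbC alone. In the fit without the block, 558 genes had an unadjusted p under 0.05 for this interaction. With 1 library left out the calls were 6 to 136 in all, 6 to 129 higher and 0 to 7 lower. The 595 strain interactions (192, 403) became 1030 (535 higher) with DESeq2, 388 (247 lower) with the total filter, 253 (61, 192) with the replicate block, 956 (358 higher) without the sparse libraries, and 373 higher with limma-voom with quality weights. The 436 tissue interactions (359, 77) became 2883 (749, 2134) with the total filter, 235 (195, 40) with filterByExpr, 3839 (3709, 130) with limma-voom with quality weights, 1994 (1986, 8) with the replicate block and 1555 (914, 641) without Treg libraries under 7000 genes, which left 2 of 16 hypothalamic ones, and 764 (695, 69) without the hypothalamic Treg library of BL6 SD pool 11_15. With 1 rest brain library left out, the tissue interactions that were lower numbered 42 to 73.

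Reversals concerned genes that had not passed: H2-Eb1 became -0.31 (limma-voom with quality weights), -1.91 (replicate block), -0.13 (SD alone) and -0.10 (random effect), Entpd1 -0.11 (quality weights) and -0.04 (random effect), Cdc20 -0.06 (BL6), -0.28 (SD) and -0.08 (BL6 without pool 01_05), Kif23 -4.04 (BL6), -4.17 (SD), -0.03 (random effect), -3.88 (BL6 without pool 01_05) and, with 1 library left out, -0.17 (without Treg BalbC SD pool 42_46) to 2.32, Cd4 0.38 (BalbC), Adora2a 1.42 (BalbC) and 0.89 (HFD), Cenpa -0.16 (SD) and Top2a 0.46 (HFD). Genes under about 0.331 CPM lie at the floor of the shallowest library, and no change there was detectable at this depth.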
